A study of Mus musculus with 8 samples.

Results

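The SLC25 genes encode carriers of the inner mitochondrial membrane, and 47 of them were described here in renal cortex of mice that lack Tfam in the nephron. The members were all protein-coding genes of the deposited table whose symbol starts with Slc25a and a number, 47 of 35275 genes listed. The 8 libraries came from 4 control mice labelled Cre- and 4 mutants labelled Six2-Tfam knockout, 1 library per mouse, all at postnatal day 7. Six2 is active in the progenitors that form the nephron from glomerulus to distal tubule, so Cre under its control does not reach vessels, stroma, immune cells or collecting duct. No group carried Cre with an intact Tfam gene, and effects of the transgene and of Tfam loss cannot be told apart.

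SLC25 carriers are small proteins that exchange metabolites between matrix and cytosol. They bring ADP, phosphate and fuel in, and take ATP, citrate and other products out. In the kidney they are best known from the proximal tubule, whose transport work depends on mitochondrial ATP and which also makes glucose and ammonium from metabolites that cross this membrane. Tfam, which packages mitochondrial DNA and starts its transcription, is needed for the respiratory chain that sets the gradients these carriers use.

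Each library held 15597762 to 20417550 counted reads. Tfam had 766 to 907 counts in the controls and 458 to 554 in the mutants, lower in every library labelled mutant. Y-linked genes had 0 to 3 counts in every control, 27 in Mut1819 and 4294 to 4915 in the other mutants. Xist had 10275 to 15593 counts in controls, 13831 in Mut1819 and 13 to 141 in the other mutants, so only Mut1819 among the mutants resembled the controls in this. The labels give no sex. In the other mutants, effects of sex as read from these counts and of genotype cannot be told apart. Of the kidney markers, all 10 of the proximal tubule were lower in mutants, and their summed level ranged from 4632 to 6424 CPM in controls and from 611 to 1134 in mutants, with none at 0. Markers of the thick limb (1110 to 1407 against 2148 to 2567 CPM), distal convoluted tubule (166 to 342 against 732 to 974.6 CPM) and podocytes (834 to 1073 against 1349 to 1501 CPM) were also at lower summed levels in every mutant. So were those of intercalated cells (160 to 190.4 against 406 to 488 CPM) and of endothelium (463 to 524 against 615 to 712 CPM, 4 of 4 markers lower). Summed levels overlapped for principal cells (438 to 721 against 670 to 836 CPM, 3 of 4 markers lower). They also overlapped for stroma (2926 to 3658 against 3026 to 4515 CPM, 1 of 4 lower). Nephron progenitor markers overlapped too (17.9 to 20.1 against 18.5 to 22.3 CPM, of 3 tested 1 higher and 2 lower). Fat cell markers were high in Con1391 and Mut1393, with a summed maximum of 39.3 CPM in the controls and 35.8 CPM in the mutants. CPM are counts scaled to a common library size after TMM, and adjusted p-values and standard errors (SE) of log2 fold changes, mutant over control, come from edgeR's quasi-likelihood test over 15028 genes unless another test is named. Mut1819 alone was tested over 15810 genes. In whole tissue, fewer cells of a type and less RNA per cell cannot be told apart.

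The 250 bases before the annotated start are shown for some carriers with large changes in each direction. They come from RefSeq on build GRCm38.p6, 5′ to 3′ on the gene's strand, and capitals mark the letters CCAAT or CACGTG on either strand. Slc25a33 and Slc25a24 are the carriers with the largest rises whose groups did not overlap. Slc25a42 and Slc25a10 are among the 3 falls past 1 log2 unit. Not shown are Slc25a21, which fell further than Slc25a10 (1.48 against 1.42), and Slc25a48, which rose further than Slc25a24 (1.52 against 0.69) with overlapping groups. The stretch of Slc25a33 lies at chr4:149774268-149774517 on the minus strand and that of Slc25a24 at chr3:109122899-109123148 on the plus strand. That of Slc25a42 lies at chr8:70212282-70212531 on the minus strand and that of Slc25a10 at chr11:120491587-120491836 on the plus strand. Gene positions given further below come from GENCODE, whose starts can differ. As placed there, Slc25a33 and Slc25a42 overlap the ends of their stretches, and the CACGTG of Slc25a33 lies within the gene.
Slc25a33: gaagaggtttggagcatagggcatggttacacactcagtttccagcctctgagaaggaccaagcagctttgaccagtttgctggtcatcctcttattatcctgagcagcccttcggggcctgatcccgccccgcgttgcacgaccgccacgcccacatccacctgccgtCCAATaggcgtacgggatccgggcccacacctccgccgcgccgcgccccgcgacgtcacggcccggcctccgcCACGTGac
Slc25a24: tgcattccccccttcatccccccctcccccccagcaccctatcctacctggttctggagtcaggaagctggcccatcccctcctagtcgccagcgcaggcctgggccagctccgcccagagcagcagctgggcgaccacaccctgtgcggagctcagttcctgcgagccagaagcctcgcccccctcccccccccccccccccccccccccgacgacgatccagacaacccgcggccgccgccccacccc
Slc25a42: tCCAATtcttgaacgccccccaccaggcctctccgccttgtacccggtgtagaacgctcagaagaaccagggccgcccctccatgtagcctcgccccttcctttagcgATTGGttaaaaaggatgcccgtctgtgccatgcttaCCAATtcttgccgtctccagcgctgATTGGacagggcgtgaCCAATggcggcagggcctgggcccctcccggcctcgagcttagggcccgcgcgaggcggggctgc
Slc25a10: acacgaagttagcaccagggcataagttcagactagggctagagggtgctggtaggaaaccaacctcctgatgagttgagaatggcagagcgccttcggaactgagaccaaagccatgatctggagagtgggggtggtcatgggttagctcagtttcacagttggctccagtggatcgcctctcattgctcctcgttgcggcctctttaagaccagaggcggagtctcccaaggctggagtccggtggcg

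Promoters of 36 of the 47 members were searched, as 46 stretches of 250 bases. Slc25a2 and Slc25a46, on chromosome 18, were not searched. Shares are of stretches and not of genes, and stretches of the same gene can overlap. CCAAT, the NF-Y box, was in 21 of 46 against 33.8% of all 32851 promoters, and 5 of its matches lay before Slc25a42. CACGTG, the E-box, was in 8 of 46 (6.02% of all), before Slc25a1, Slc25a13, Slc25a14, Slc25a15, Slc25a31, Slc25a33 and Slc25a36. Of these, Slc25a1 and Slc25a14 did not pass the test given below, and Slc25a31 was too low to test. The stretches of Slc25a14 overlap and hold the same match. CCGGAAG, the ETS element, was in 6 of 46 (6.91% of all), before Slc25a3, Slc25a4, Slc25a17, Slc25a20, Slc25a38 and Slc25a54. None of the 46 held TGATGNAA, the ATF4 composite element (3.45% of all promoters), the NRF1 palindrome (0.782%), TCAAGGTCA of ERR (0.387%), CAAAGTCCA of HNF4 (0.384%), the HNF1 site (0.371%) or the direct repeat of PPAR (0.0335%). These matches describe letters, not binding.

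Of the 47 carriers, 42 had enough counts to test, and the other 5 (Slc25a2, Slc25a18, Slc25a31, Slc25a41 and Slc25a54) had at most 39 counts over all 8 mice. Of the 42, 22 passed an adjusted p of 0.05, 8 higher and 14 lower in mutants. The same call was made for 46.2% of all tested genes, 23.5% higher and 22.7% lower, against 52.4%, 19.0% and 33.3% of the carriers. Calls per role, given below, are counts of few genes, and no role was tested as a set. Mutants were all above the controls for 7 carriers (16.7%, against 22.1% of all genes) and all below them for 13 (31.0%, against 20.8%). The median log2 fold change of the carriers was -0.01, and it was -0.00 over all tested genes. Changes past 1 log2 unit numbered 2 upward (3.72% of all genes) and 3 downward (5.96% of all genes). Every one of the 22 changed carriers had the same sign within each of the 3 ranges of mouse numbers (1300, 1400 and 1800), whose meaning the labels do not give. Where the groups do not overlap, any split of the mice must keep the sign. Only the 3 changed carriers with overlapping groups could have differed.

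**Figure D1:**
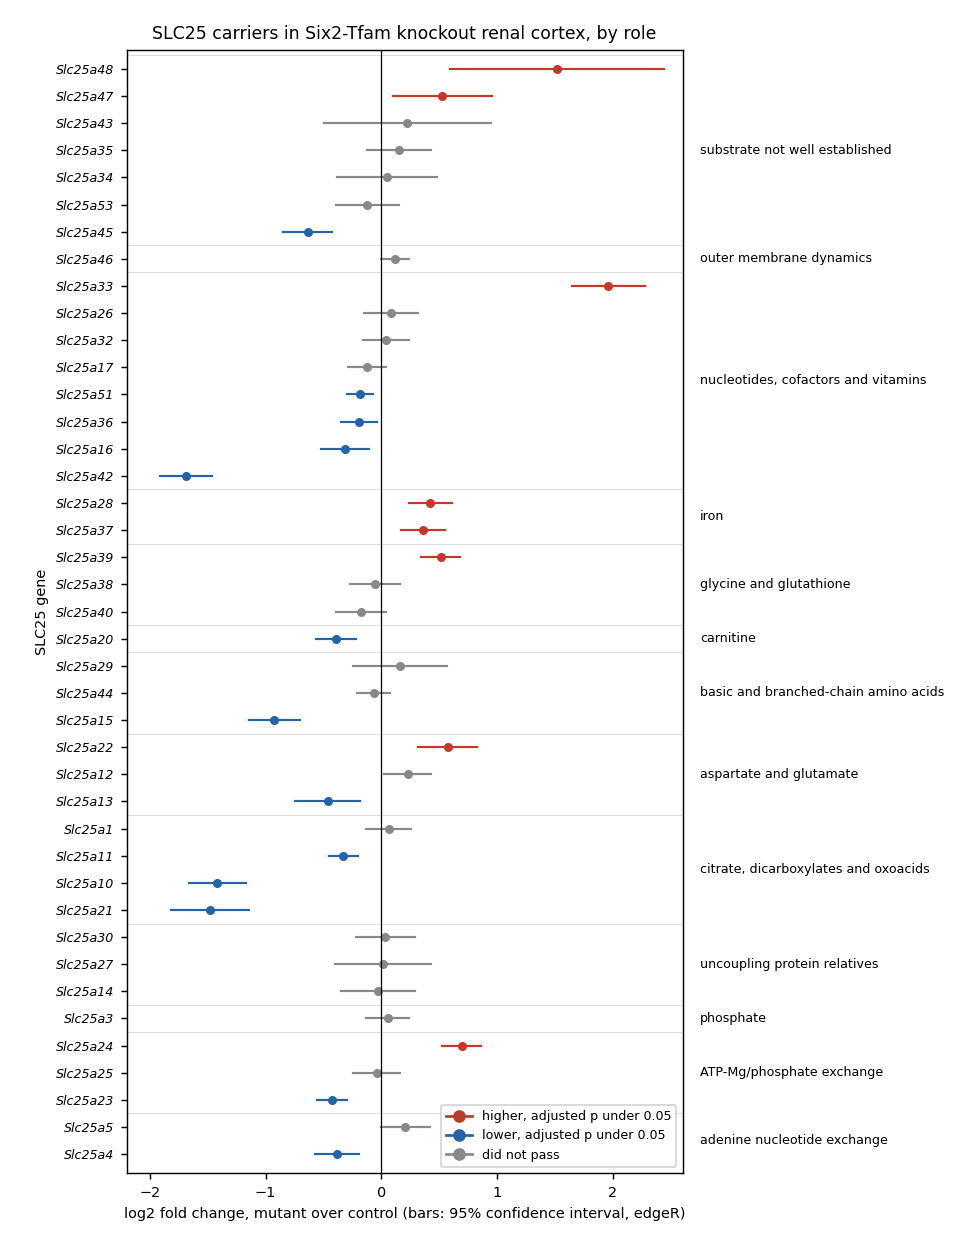
Log2 fold change of mutant over control (x axis) for the tested SLC25 genes reported here (y axis), grouped by role, with points for the edgeR estimate and bars for its 95% confidence interval. Slc25a33 lies furthest to the right at 1.96 and Slc25a42 furthest to the left at -1.69, and the uncoupling protein relatives lie near 0.

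Levels differed over a wide range between carriers. On the deposited length-scaled FPKM values, Slc25a5 was highest in controls (778 ± 32.9, SD, n = 4), followed by the phosphate carrier Slc25a3 (578 ± 26.3), Slc25a4 (435 ± 35.9), Slc25a39 (239 ± 7.83), Slc25a11 (212 ± 5.29), Slc25a10 (168 ± 26.1) and Slc25a1 (116 ± 8.85). These 7 were the carriers above 100 FPKM, and 7 others were under 1 FPKM. Slc25a3, Slc25a4 and Slc25a5 together held 54.3% ± 1.03 of the family's summed FPKM in controls and 56.6% ± 1.35 in mutants. Among the controls, the summed FPKM was 3288 in Con1391, 3458 in Con1452, 3266 in Con1822 and 3184 in Con1823. Among the mutants it was 3146 in Mut1393, 3611 in Mut1453, 3649 in Mut1454 and 3194 in Mut1819. The groups overlapped, and the ratio of the means, mutant over control, was 1.03 in FPKM and 0.953 in CPM. The direction of the sum thus depends on the scale. CPM include TMM factors (0.928 to 1.01 in controls, 1.006 to 1.052 in mutants), which were not applied to the FPKM. As a share of raw counts the family held 0.449% ± 0.0163 in controls and 0.451% ± 0.0324 in mutants. Mitochondrial genes held 3.88% to 9.28% of counts in controls and 1.15% to 1.84% in mutants. Within the sum, Slc25a39 went from 7.26% ± 0.239 to 10.6% ± 0.181 and Slc25a10 from 5.07% ± 0.70 to 1.96% ± 0.19, with no overlap between the groups for either. By mean FPKM, Slc25a39 moved from rank 4 to rank 3, and Slc25a10 moved from rank 6 to rank 9.

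**Figure D2:**
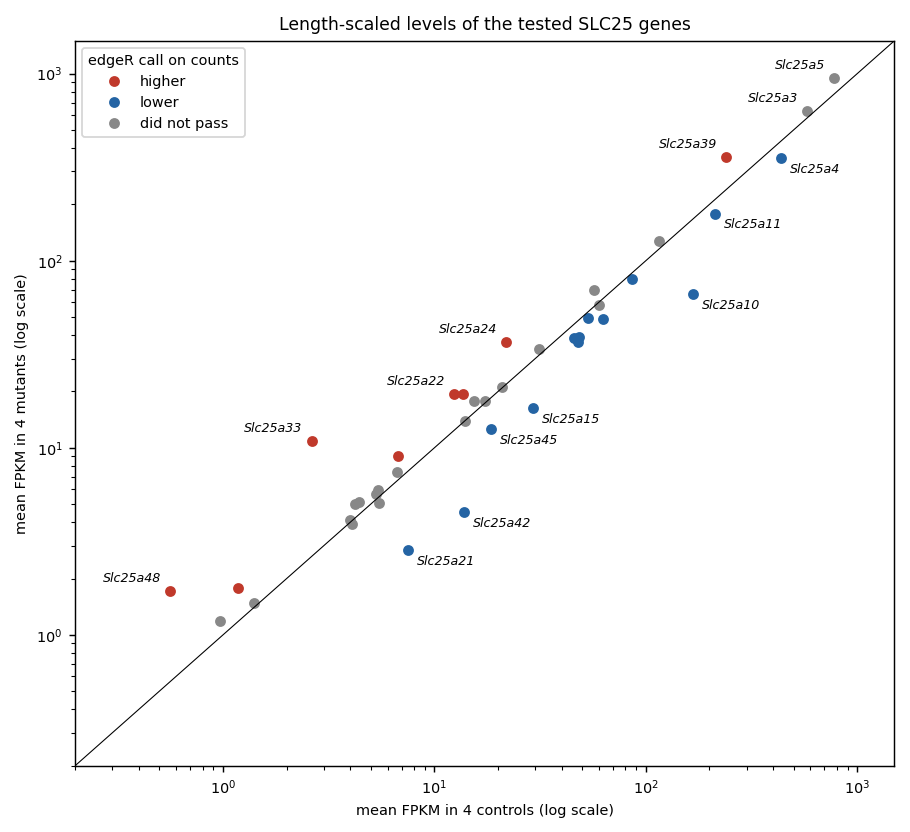
Mean FPKM of each tested SLC25 gene reported here in 4 mutants (y axis) against 4 controls (x axis), both on log scales, with equality as a line and colour for the edgeR call. Slc25a5, Slc25a3 and Slc25a4 stand at the top, while Slc25a33 lies far above the line and Slc25a42 and Slc25a21 far below it.

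The carriers for adenine nucleotides and phosphate serve ATP synthesis. Slc25a4 and Slc25a5 encode the ADP/ATP carriers ANT1 and ANT2, and Slc25a3 brings in phosphate. Slc25a4 (chr8:46206797-46211284) had 723, 830, 640 and 673 CPM in controls and 529, 568, 597 and 506 in mutants, in the order of mice given above, which is kept below. All mutants lay below all controls, and Slc25a4 fell by 0.38 on the log2 scale (SE 0.09, adjusted p = 0.00368). Slc25a5, on chromosome X, had 754, 868, 795 and 773 CPM in controls and 788, 1015, 1046 and 825 in mutants. Its groups overlapped, and its log2 fold change of 0.20 (95% confidence interval -0.01 to 0.42, adjusted p = 0.105) did not pass. Slc25a3 had 831, 974, 881 and 865 CPM in controls and 845, 973, 1032 and 835 in mutants, with overlap and a log2 fold change of 0.05 (interval -0.13 to 0.24).

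Calcium-regulated ATP-Mg/phosphate carriers adjust the size of the matrix nucleotide pool, and their 3 tested members did not move alike. Slc25a24 (chr3:109123149-109168457), which encodes SCaMC-1, had 48.2, 40.2, 49.1 and 44.9 CPM in controls and 70.3, 73.5, 81.9 and 69.0 in mutants. It rose by 0.69 (SE 0.08, adjusted p = 1.64e-05), with every mutant above every control. Slc25a23, which encodes SCaMC-3, had 93.8, 90.6, 95.2 and 88.5 CPM in controls and 68.6, 64.7, 74.7 and 65.6 in mutants, a fall by 0.43 (SE 0.06, adjusted p = 8.68e-05) with no overlap. Slc25a25 averaged 30.8 ± 3.93 and 29.9 ± 2.05 CPM and did not pass (-0.04, interval -0.25 to 0.16). The log2 ratio of counts of Slc25a23 to Slc25a24 averaged 1.02 ± 0.104 in controls and -0.11 ± 0.0654 in mutants, so Slc25a23 had more counts in every control and fewer in every mutant. Counts are not scaled for length. By mean FPKM Slc25a23 was the higher in both groups, at 62.6 against 21.7 in controls and 48.9 against 36.9 in mutants.

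Carriers of citrate, dicarboxylates and oxoacids link the citric acid cycle with the cytosol, and 3 of 4 fell (22.7% of all genes). Slc25a10 (chr11:120491840-120499187), the dicarboxylate carrier that exchanges malate and succinate for phosphate, had 215, 217, 154 and 165 CPM in controls and 74.4, 72.1, 72.2 and 62.3 in mutants. It fell by 1.42 (SE 0.11, adjusted p = 1.12e-06), and the mutants were close to each other while the controls of the 1800 range were the lower pair of their group. Slc25a21 (chr12:56712634-57197472), the oxoadipate carrier used in lysine and tryptophan breakdown, had 9.52, 14.4, 13.01 and 10.9 CPM in controls and 4.48, 4.86, 3.89 and 3.89 in mutants, a fall by 1.48 (SE 0.15, adjusted p = 9.05e-06). Slc25a11, the oxoglutarate carrier of the malate-aspartate shuttle, went from 185, 195, 171 and 181 to 143, 150, 153 and 137 CPM and fell by 0.33 (SE 0.06, adjusted p = 0.000678). For each of the 3 every mutant lay below every control. Slc25a1, the citrate exporter that feeds lipid synthesis, averaged 101 ± 9.53 and 105 ± 12.0 CPM and did not pass (0.06, interval -0.13 to 0.25).

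Aspartate and glutamate carriers split in direction. Slc25a13, which encodes citrin, the aspartate/glutamate carrier best known from liver, had 108, 152, 109 and 105 CPM in controls and 88.5, 97.2, 90.6 and 68.0 in mutants. It fell by 0.46 (SE 0.13, adjusted p = 0.0110) with no overlap, and Con1452 was the high control. Its relative Slc25a12, which encodes aralar, had 90.8, 104, 105 and 90.2 CPM in controls and 102, 128, 127 and 100 in mutants, a log2 fold change of 0.23 (interval 0.02 to 0.43, adjusted p = 0.0657) that did not pass. Slc25a22, a glutamate carrier, had 13.1, 12.8, 17.1 and 14.9 CPM in controls and 18.0, 22.0, 22.3 and 23.9 in mutants, a rise by 0.57 (SE 0.12, adjusted p = 0.00162) with no overlap. Slc25a18, the other glutamate carrier, was too low to test, with control counts summing to 17 and mutant counts to 22.

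Among carriers of basic and branched-chain amino acids, Slc25a15 fell. It encodes the ornithine carrier of the urea cycle (chr8:22375551-22398597) and had 96.6, 124, 93.2 and 103 CPM in controls and 55.3, 57.7, 60.1 and 46.3 in mutants. The fall was 0.92 on the log2 scale (SE 0.10, adjusted p = 1.26e-05), with no overlap. Slc25a29, a carrier of basic amino acids, averaged 4.65 ± 0.691 and 5.20 ± 1.13 CPM and did not pass (0.16, interval -0.25 to 0.57). Slc25a44, which carries branched-chain amino acids, did not pass either (-0.07, interval -0.21 to 0.08).

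Slc25a20 brings acylcarnitines into the matrix for fatty acid oxidation. It had 92.9, 96.3, 74.8 and 91.1 CPM in controls and 69.1, 71.8, 66.0 and 63.7 in mutants, all mutants below all controls, and it fell by 0.39 (SE 0.08, adjusted p = 0.00138).

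Of the carriers tied to glycine and glutathione, 1 of 3 rose (23.5% of all genes). Slc25a39 (chr11:102402985-102407946), which imports glutathione into the matrix, had 229, 242, 208 and 223 CPM in controls and 291, 347, 351 and 301 in mutants. It rose by 0.51 (SE 0.08, adjusted p = 0.000182) with no overlap. Its relative Slc25a40 averaged 14.96 ± 1.66 and 13.2 ± 0.596 CPM (-0.18, interval -0.40 to 0.04), and Slc25a38, the glycine carrier of haem synthesis, averaged 18.4 ± 2.63 and 17.7 ± 0.40 CPM (-0.06, interval -0.28 to 0.16). Neither passed.

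The mitoferrins bring iron into the matrix for haem and iron-sulphur clusters. Slc25a28, mitoferrin 2, had 22.7, 21.0, 20.8 and 20.8 CPM in controls and 29.4, 29.7, 30.8 and 24.3 in mutants, a rise by 0.42 (SE 0.08, adjusted p = 0.00138). Slc25a37, mitoferrin 1, had 20.7, 20.9, 25 and 20.6 CPM in controls and 25.1, 30.2, 28.9 and 27.7 in mutants, a rise by 0.36 (SE 0.09, adjusted p = 0.00491). The groups did not overlap for either gene, with Con1822 and Mut1393 nearly level for Slc25a37. Slc25a37 and Slc25a38 are used most by red cell precursors. Of 5 erythroid genes, 1 was lower and none higher, and their summed level ranged from 587 to 887 CPM in controls and from 468 to 596 in mutants.

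Carriers of nucleotides and cofactors held both extremes of the family. Of the 9, 1 was higher (23.5% of all genes) and 5 were lower (22.7% of all genes). Slc25a33 (chr4:149744036-149774277), a pyrimidine nucleotide carrier tied to mitochondrial DNA and RNA synthesis, had 66, 106, 80 and 80 counts in controls and 337, 357, 470 and 360 in mutants. As CPM these were 4.16, 6.35, 5.08 and 4.83 in controls and 16.4, 20.6, 22.9 and 19.7 in mutants. Every mutant was above every control, and Slc25a33 rose by 1.96 (SE 0.14, adjusted p = 6.42e-07), 3.90-fold between the means. Slc25a36, the other pyrimidine nucleotide carrier, had 102, 117, 99.1 and 106 CPM in controls and 100, 94.6, 83.7 and 91.7 in mutants, and fell by 0.19 (SE 0.07, adjusted p = 0.0379) with overlap between Mut1393 and Con1822. By FPKM Slc25a36 stayed the more expressed of the pair, at 53.3 ± 1.93 in controls and 49.2 ± 4.08 in mutants, against 2.63 ± 0.40 and 10.8 ± 1.36 for Slc25a33.

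Slc25a42 (chr8:70184340-70212305), the carrier of coenzyme A, had 39.1, 45.9, 38.1 and 32.6 CPM in controls and 13, 11.5, 11.5 and 12.3 in mutants. All mutants lay below all controls, and it fell by 1.69 (SE 0.10, adjusted p = 1.38e-07), to 0.310 of the control mean. Slc25a16, set beside it as a related carrier, had 74.8, 86.9, 66.6 and 70.01 CPM in controls and 56.0, 65.7, 65.5 and 52.5 in mutants, a fall by 0.32 (SE 0.10, adjusted p = 0.0173). Without Con1452 (adjusted p = 0.0555) or Mut1819 (adjusted p = 0.0531) Slc25a16 did not pass.

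Slc25a51, the NAD+ carrier, had 180, 184, 181 and 187 CPM in controls and 163, 164, 166 and 151 in mutants, a small fall by 0.19 (SE 0.05, adjusted p = 0.0104), with no overlap. Slc25a17, a carrier of peroxisomes, did not pass (-0.13, interval -0.29 to 0.04), but did with mouse number range as a block (-0.19, adjusted p = 0.00939). Slc25a26, the S-adenosylmethionine carrier (0.09, interval -0.15 to 0.32), and Slc25a32, the folate and flavin carrier (0.04, interval -0.16 to 0.24), did not pass.

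The relatives of the uncoupling proteins showed no call. Slc25a30 had 55.9, 65.3, 43.2 and 55.7 CPM in controls and 51.3, 59.6, 64.3 and 49.7 in mutants, with overlap and a log2 fold change of 0.03 (interval -0.22 to 0.29). Slc25a14 (-0.03, interval -0.35 to 0.29) and Slc25a27 (0.01, interval -0.40 to 0.42) did not pass, at 4.57 to 6.25 CPM in mutants for the first and 3.07 to 5.06 for the second. Slc25a46, which acts at the outer membrane in fission and lipid exchange, had 64.7, 71.4, 71.1 and 70.4 CPM in controls and 73.9, 79.4, 73.6 and 74.5 in mutants. Its groups did not overlap, yet it did not pass (0.12, SE 0.05, adjusted p = 0.0961).

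Of 7 tested carriers whose substrate is not well established, 2 rose (23.5% of all genes) and 1 fell (22.7% of all genes). Slc25a45 had 29.4, 29.5, 30.1 and 24.2 CPM in controls and 20.2, 17.6, 19.0 and 15.8 in mutants, a fall by 0.64 (SE 0.10, adjusted p = 0.000186) with no overlap. Slc25a48 had 17, 50, 33 and 28 counts in controls and 62, 176, 136 and 52 in mutants. Its log2 fold change was 1.52 (SE 0.42, adjusted p = 0.0115), with Mut1453 and Mut1454 high, Mut1819 within the range of the controls in CPM (2.85 against 1.07 to 2.997) and an estimate of 0.53 (adjusted p = 0.459) for Mut1819 alone. Slc25a47 averaged 1.90 ± 0.263 and 2.74 ± 0.434 CPM, and its rise by 0.53 (adjusted p = 0.0437) was lost in 12 other settings. Slc25a47 and Slc25a29 lie 162 bases apart on chromosome 12 on opposite strands, and reads near their starts could be shared if strand was not used in counting. The others, Slc25a34, Slc25a35, Slc25a43 and Slc25a53, did not pass.

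**Figure D3:**
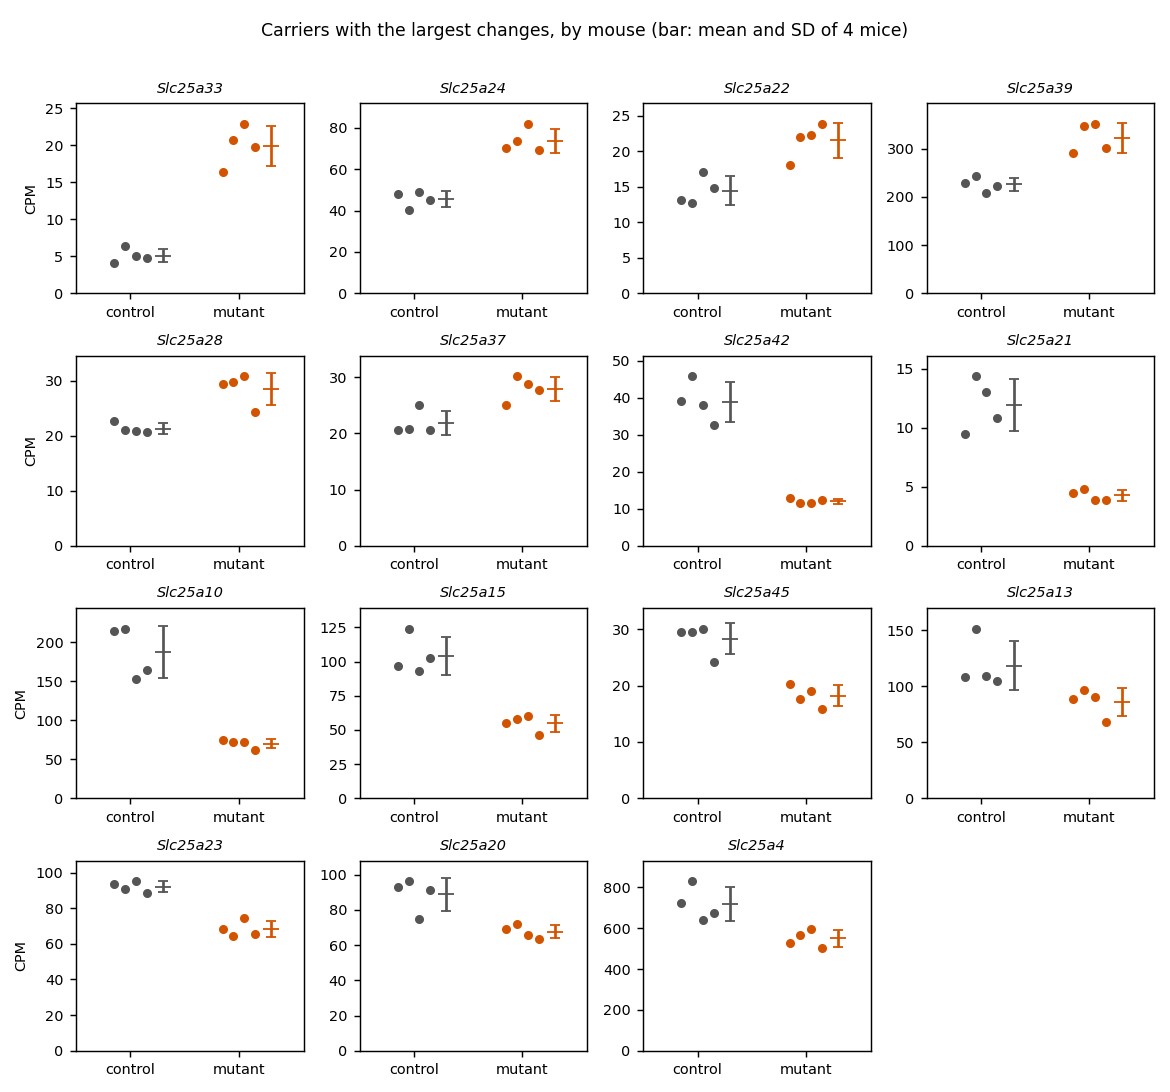
CPM per mouse (y axis from 0) for the 6 largest rises and 9 of the 10 largest falls whose groups did not overlap, with 4 controls in grey, 4 mutants in orange, and the mean with its SD beside the points. The drop of Slc25a42 to 11.5 to 13 CPM and the rise of Slc25a33 to 16.4 to 22.9 CPM leave no overlap with the controls.

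Carriers with like substrates were compared within each mouse as the log2 ratio of their counts, which needs no library size. Of 12 pairs, 11 had both members tested, and 9 ratios differed between the groups at p = 0.0286 (exact permutation test, two-sided, 70 assignments of the mice; adjusted p = 0.0349 over the 11 pairs). That p is the lowest this design allows. Each of the 9 pairs holds a carrier already called above in the same mice, without overlap between the groups. The 9 are therefore not evidence separate from those calls. No such count was made for pairs of other genes, so 9 of 11 is not shown to be particular to related carriers. Of all tested genes, the mutants lay above all controls for 22.1% and below them for 20.8% in CPM. The ratio of Slc25a33 to Slc25a36 had the widest shift, from a mean of -4.37 ± 0.182 to -2.22 ± 0.302, a difference of 2.15. Slc25a16 over Slc25a42 went up by 1.36, and Slc25a23 over Slc25a24 changed by -1.12. Slc25a10 over Slc25a11 went from 0.02 ± 0.191 to -1.05 ± 0.0826, and Slc25a15 over Slc25a29 from 4.47 ± 0.182 to 3.41 ± 0.349.

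The ratio of Slc25a4 to Slc25a5, ANT1 to ANT2, was -0.06, -0.06, -0.31 and -0.20 in controls and -0.57, -0.84, -0.81 and -0.71 in mutants, a difference of -0.57 with no overlap. Slc25a12 over Slc25a13, aralar to citrin, was -0.26, -0.54, -0.06 and -0.22 in controls and 0.20, 0.40, 0.48 and 0.56 in mutants, so citrin had more counts in every control and aralar in every mutant. By mean FPKM, which is scaled for length, aralar was the higher in both groups. It stood at 56.9 against 47.8 in controls and 70.1 against 36.7 in mutants. Slc25a39 over Slc25a40 shifted by 0.68 and Slc25a24 over Slc25a25 by 0.73. The mitoferrins, Slc25a28 over Slc25a37, kept a mean ratio of -0.03 ± 0.168 and 0.03 ± 0.176, and Slc25a14 over Slc25a30 of -3.31 ± 0.344 and -3.38 ± 0.36, with overlapping groups (adjusted p = 0.691 and 0.714, exact permutation test). Some pairs share a gene, so the 9 are not separate observations.

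**Figure D4:**
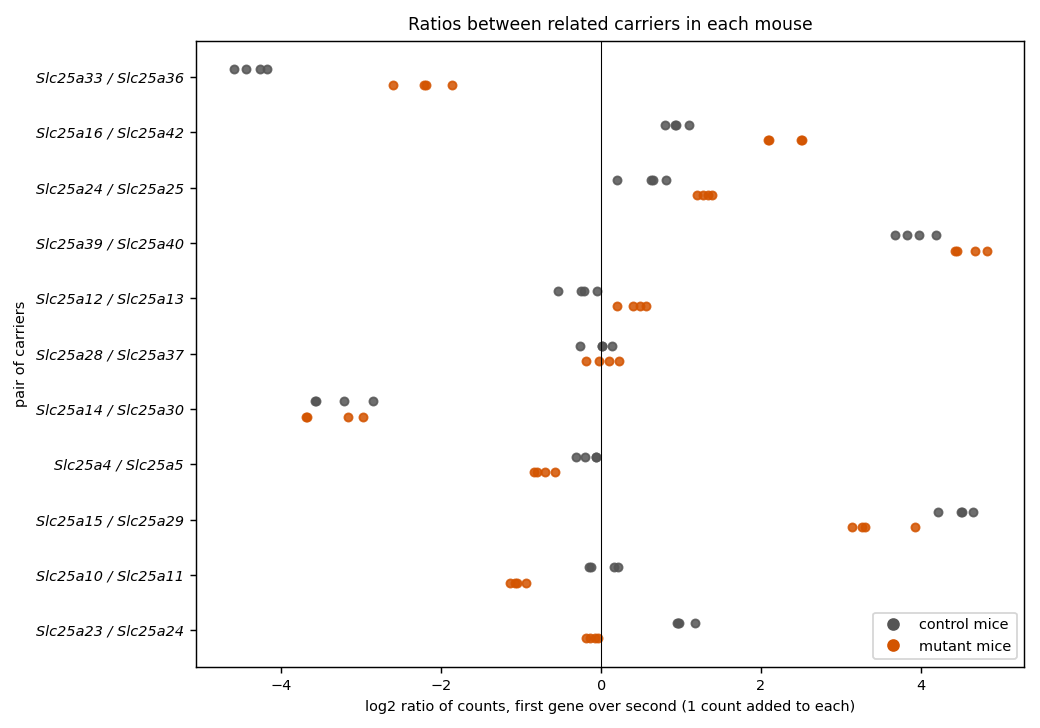
Log2 ratio of counts of the first gene over the second (x axis) in each mouse for 11 pairs of related carriers (y axis), controls in grey and mutants in orange. The groups are apart for 9 pairs, and they overlap for Slc25a28 over Slc25a37 and for Slc25a14 over Slc25a30.

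With a term for Y-linked counts in the fit, 6 of the 22 calls were lost. Once Y-linked counts entered the fit, 4 carriers rose (12.6% of all genes) and 12 fell (13.8% of all genes), all of them called in the same direction without the term. That estimate rests on Mut1819, the mutant with few Y-linked counts, and Mut1819 alone against the 4 controls gave 4 higher (10.6% of all genes) and 11 lower (12.7% of all genes), with all 22 signs kept. With 1 mutant library, the SEs, adjusted p-values and counts of that comparison rest on the spread among the controls, and Mut1819 is assumed to vary like them. Slc25a33 had a log2 fold change of 1.95 in Mut1819 alone, Slc25a42 of -1.67, Slc25a10 of -1.59 and Slc25a15 of -1.17. Both mitoferrins, Slc25a36, Slc25a47 and Slc25a48 were among those that missed the threshold with the term. For Slc25a28 the value dropped to 0.19 (adjusted p = 0.220). For Slc25a37 it stayed at 0.34 (adjusted p = 0.0943), with an SE of 0.14 against 0.09 without the term. For Slc25a36 it was -0.21 against -0.19, with an SE of 0.12 against 0.07. How far larger SEs or the Y-linked difference itself account for the lost calls was not tested. Mut1819 is part of both comparisons, so they are not independent. Its kept signs say little for carriers whose groups did not overlap, since every mutant already lay past every control.

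**Figure D5:**
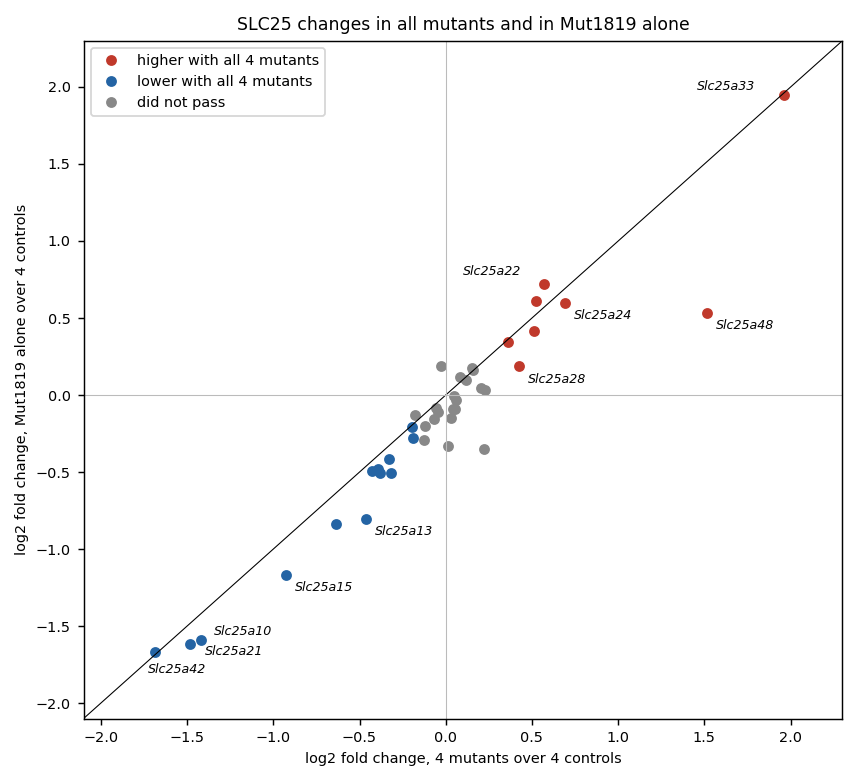
Log2 fold change of Mut1819 alone (y axis) against that of all 4 mutants (x axis), each over the same 4 controls, for the tested SLC25 genes reported here, with equality as a line. Slc25a48 lies furthest below the line at 0.53 against 1.52, and Slc25a33 and Slc25a42 lie on it.

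The falls among carriers stood beside the lower tubule, podocyte and endothelial markers given above, and the rises beside 3 of 3 measured macrophage markers, whose summed level ranged from 65.2 to 75.7 CPM in controls and from 98.6 to 110 in mutants. The part of either in the carriers' changes was not tested. Carriers that fell had a median control level of 48.1 FPKM and those that rose 9.56 FPKM.

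SLC25 genes with other symbols were also read. Ucp2 averaged 245 ± 24.6 and 283 ± 32.4 CPM and did not pass (0.21, adjusted p = 0.0828), and neither did Ucp3 or Mtch1. Mtch2, an outer membrane insertase related to the carriers, rose by 0.20 (adjusted p = 0.0297), with overlapping groups. Its value was 0.065 with the term for Y-linked counts (adjusted p = 0.672, edgeR) and 0.064 in Mut1819 alone. Ucp1, the uncoupling protein of brown fat, had 11.5 CPM in Con1391 and 5.89 in Mut1393 and at most 0.243 in the other mice, the same libraries that held the fat cell markers.

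Other mitochondrial transporters, which are not of this family, were set beside the carriers from a list of 22, of which 21 were tested. Of these, 4 rose and 8 fell, where 23.5% of all tested genes rose and 22.7% fell, and the median over the list was -0.12 on the log2 scale. Sfxn2, a sideroflexin, fell by 1.70 (SE 0.10), from 102 ± 9.999 to 31.4 ± 4.23 CPM. Mpc2, a subunit of the pyruvate carrier, fell by 0.57 and its partner Mpc1 by 0.65, while the outer membrane channel Vdac3 rose by 0.38. The enzymes that work with Slc25a11, Slc25a12 and Slc25a13 in the NADH shuttles also differed among themselves. Cytosolic Mdh1 fell by 0.66 and Got1 rose by 1.18, while their matrix forms Mdh2 (0.16) and Got2 (0.03) did not pass. In the glycerol phosphate shuttle Gpd1 fell by 1.81 and Gpd2 rose by 0.50.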

How the data were processed

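Renal cortex RNA of 4 control and 4 mutant mice was sequenced, 1 library per mouse, and samples were grouped by the labels. Per the file headers, the deposited table holds raw read counts and FPKM per gene and mouse, the authors' group means of normalized counts (a signal), and their log2 fold changes and p-values. Per the submitters' processing notes, Bowtie2, TopHat, TopHat2, HTSeq, DESeq2 and build mm10 were used; tool versions, annotation and strand setting were not given in these sources. Reads of overlapping genes on opposite strands therefore cannot be told apart. Among others, this holds for Slc25a33 and Gm13068, Slc25a21 and Pax9, Slc25a11 and Rnf167, and Slc25a10 and Gm11788.

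Counts were tested with edgeR 4.0.16 (R 4.3.3; filterByExpr, TMM, quasi-likelihood F test, Benjamini-Hochberg adjustment over 15028 genes at 0.05), after the procedure was tested on simulated data. A library had Y-linked counts above 100 to enter the term for them. Alternatives were DESeq2 1.42.0, limma-voom 3.58.1, other size factors and filters, terms for mouse number range and Y-linked counts, and leaving out each mouse. Log2 ratios of pairs used counts plus 1. Depth was 15597762 to 20417550 counts per library. In the authors' deposited table, 21 of the 22 carriers called here were called with the same sign.

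Every member could be named within its role. Values in every mouse were chosen for the 10 largest rises and falls past the threshold without overlap and the most expressed member of each role, with others added after their values were seen. Members and lists were chosen with earlier results of these data known. The labels do not name litters, so p-values measure the spread between these mice. The values of 1 member are not reported here, though it is included in the counts.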

Additional observations from a re-analysis of the deposited data

Results flagged for a closer look

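In 7 of 84 groups of 4 mice, the highest or lowest mouse stood apart from the others by Dixon's criterion at 95%, which chance does in about 1 of 20 groups. Slc25a13 was at 152 CPM in Con1452, against 105 to 109 in the other mice of its group. Slc25a28 was at 22.7 CPM in Con1391, against 20.8 to 21.0 in the other mice of its group. Slc25a37 was at 25 CPM in Con1822, against 20.6 to 20.9 in the other mice of its group. Slc25a45 was at 24.2 CPM in Con1823, against 29.4 to 30.1 in the other mice of its group. Slc25a46 was at 64.7 CPM in Con1391, against 70.4 to 71.4 in the other mice of its group. Slc25a46 was at 79.4 CPM in Mut1453, against 73.6 to 74.5 in the other mice of its group. Slc25a47 was at 2.09 CPM in Mut1393, against 2.90 to 3.02 in the other mice of its group.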

How the results depend on the processing

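Of the 22 changed carriers, 14 passed in each of the 17 alternative settings that tested them and none changed sign in any; a filter at 10 CPM in 4 mice removed Slc25a21, Slc25a47 and Slc25a48. Slc25a47 lost its call in 12 settings, Slc25a36 in 9, Slc25a16, Slc25a28, Slc25a37 and Slc25a48 in 2 each and Slc25a51 in 1. The count of higher carriers, 8, was 4 with the term for Y-linked counts and 4 in Mut1819 alone, and 7 to 10 when each mouse was left out. The count of lower carriers, 14, ranged from 11 to 15 over all settings. Of all genes, 6948 changed, 3967 with that term and 3684 in Mut1819 alone. The summed level, 1.03 times the control mean in FPKM, was 0.953 in CPM and 0.957 in CPM without mitochondrial genes. Of these, only the 0.953 includes TMM factors. The cause of these dependences was not tested, except that Mut1819 alone has fewer samples. Pairs past the threshold numbered 8 to 9 when each mouse was left out. Of the 20 carriers that did not pass, 10 changed the sign of their log2 fold change without passing. With mouse number range as a term it was -0.0065 for Slc25a1, 0.040 for Slc25a14, -0.0016 for Slc25a3, -0.058 for Slc25a30 and -0.022 for Slc25a34. With the term for Y-linked counts it was -0.033 for Slc25a1, 0.19 for Slc25a14, -0.33 for Slc25a27, -0.089 for Slc25a3, -0.15 for Slc25a30, -0.089 for Slc25a32, -0.0020 for Slc25a34 and -0.35 for Slc25a43. In Mut1819 alone it was -0.034 for Slc25a1, 0.19 for Slc25a14, -0.33 for Slc25a27, -0.090 for Slc25a3, -0.15 for Slc25a30, -0.090 for Slc25a32, -0.0033 for Slc25a34 and -0.35 for Slc25a43. With limma-voom it was -0.0027 for Slc25a27. When each mouse was left out in turn, the value ranged from -0.11 to 0.039 for Slc25a14, -0.12 to 0.034 for Slc25a25, -0.14 to 0.11 for Slc25a27, -0.0045 to 0.11 for Slc25a3, -0.068 to 0.13 for Slc25a30, -0.0053 to 0.081 for Slc25a32, -0.10 to 0.28 for Slc25a34, -0.13 to 0.045 for Slc25a38 and -0.019 to 0.37 for Slc25a43. No paired analysis was possible because the groups share no mouse number in the labels. With the range of mouse numbers as a block, 7 carriers were higher (24.3% of all genes) and 15 lower (23.9% of all genes). Slc25a17 was added (-0.19) and Slc25a47 was lost (0.52). Depth limits the 5 untested carriers, of at most 39 counts over all mice.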
